A study of Mus musculus with 3 samples.

Results

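Transcripts of 9 genes that carry hepatocyte growth factor (HGF) and fibroblast growth factor (FGF) signals toward muscle stem cells were followed through single-cell RNA sequencing of regenerating mouse muscle. The genes were the ligands Hgf, Fgf2, Fgf7 and Fgf18, the receptors Met, Fgfr1 and Fgfr4, and the feedback inhibitors Spry1 and Spry2. They were taken by name from the gene symbols of the count files, 9 of 32245 symbols, of which 25268 had at least 1 UMI in the cells kept. A UMI is a molecular barcode that marks 1 captured transcript.

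The muscle was the tibialis anterior of C57/BL6J mice, dissociated whole 4 days after injection of barium chloride (BaCl2), which kills the fibers and starts regeneration. There were 3 libraries with 1 for each group, and all 3 came from injured muscle. Young PBS was young mice given the saline vehicle, old PBS was old mice given the same, and old rMETRNL was old mice whose injured muscle received recombinant METRNL protein. Each library pooled triplicate muscle samples according to the study's methods, and the labels state age only as young or old. With no replicate of any group, the groups could not be tested against each other, and the intervals below cover counting error alone, not the spread between mice.

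HGF is deposited in the muscle matrix and is released and activated after injury. Its receptor is the tyrosine kinase MET, and this pair draws quiescent muscle stem cells (MuSCs) toward the cell cycle. FGF ligands act on receptor kinases of the FGFR family together with heparan sulfate and feed the same RAS and ERK cascade. Sprouty proteins are made in response to that cascade and damp it, and Spry1 is known for returning MuSCs to quiescence.

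The files held 12168 barcodes and 218059089 UMIs for young PBS, 12568 and 179295668 for old PBS, and 14012 and 228966697 for old rMETRNL. After filters on gene number, mitochondrial share and doublets, 10285, 9941 and 11363 cells were kept, with medians of 15092, 13681 and 14482 UMIs. Pairs of libraries shared 24 to 33 kept barcode sequences. Fibro/adipogenic progenitor (FAP)-like cells numbered 1615, 1317 and 1663 in the order young PBS, old PBS, old rMETRNL, which is used for all triplets below. Macrophage/monocyte-like cells numbered 6021, 5573 and 6501, and MuSC/myoblast-like cells 363, 179 and 365. All markers of these 3 classes were detected in their own class in each library, 10 of 10 for FAPs, 12 of 12 for macrophages and monocytes, and 8 of 8 for MuSCs and myoblasts. Detection here means any UMI summed over the class. The classes were named from the same lists, so this is no independent check of the names. Endothelial-like cells of old PBS stood apart by depth, with a median of 3914 UMIs against 11276 in young PBS and 7282 in old rMETRNL. Mature fibre-like cells made up 0.331%, 4.36% and 1.13% of kept cells.

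The Spry1 and Spry2 promoters are printed because both genes were higher in old PBS than in young PBS in FAP-like and in MuSC/myoblast-like cells. The windows are RefSeq sequences of GRCm38.p6, 250 bases before to 50 bases after the annotated start, at chr3:37639697-37639996 on the plus strand for Spry1 and chr14:105896770-105897069 on the minus strand for Spry2. Capitals mark CCGGAA, a core bound by ETS factors, which are known targets of ERK.

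Spry1: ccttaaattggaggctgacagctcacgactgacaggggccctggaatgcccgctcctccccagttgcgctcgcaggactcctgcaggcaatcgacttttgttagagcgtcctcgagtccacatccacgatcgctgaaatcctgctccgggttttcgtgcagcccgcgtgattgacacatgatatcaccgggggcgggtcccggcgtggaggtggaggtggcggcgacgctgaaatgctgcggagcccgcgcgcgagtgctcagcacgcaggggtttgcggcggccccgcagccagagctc

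Spry2: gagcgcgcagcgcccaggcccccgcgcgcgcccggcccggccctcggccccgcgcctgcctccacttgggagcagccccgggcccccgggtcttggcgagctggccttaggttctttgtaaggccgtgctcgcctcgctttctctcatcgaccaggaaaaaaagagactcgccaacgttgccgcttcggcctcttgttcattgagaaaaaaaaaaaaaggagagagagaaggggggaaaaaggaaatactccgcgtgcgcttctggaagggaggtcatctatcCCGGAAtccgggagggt

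Spry2 held 1 match, starting 34 bases after the start, and the Spry1 window held no CCGGAA on either strand. The motif was searched as CCGGAA and its reverse complement TTCCGG and occurred in 14.9% of the 32851 windows of this length. Counted by gene, 16.7% of genes with a window had it. Among the 8 genes with a window (none matched Fgfr1) it was found in Spry2 and Fgfr4. The E-box CAGCTG, a core that myogenic factors such as MYOD1 bind and its own reverse complement, was in 16.3% of windows, 18.3% of genes and 0 of the 8. Both Sprouty windows were rich in CpG, with 29 sites in Spry1 and 28 in Spry2 against a median of 7 over all windows. A match here is a description of letters and no evidence of binding.

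By gene identifier the members lay, in GENCODE coordinates of GRCm38, at chr5:16553495-16620152 for Hgf (ENSMUSG00000028864), chr6:17463800-17573980 for Met (ENSMUSG00000009376), chr3:37348346-37410108 for Fgf2 (ENSMUSG00000037225) and chr2:126034658-126091185 for Fgf7 (ENSMUSG00000027208). Fgf18 (ENSMUSG00000057967) lay at chr11:33117430-33147400, Fgfr1 (ENSMUSG00000031565) at chr8:25513654-25575718 and Fgfr4 (ENSMUSG00000005320) at chr13:55152640-55168759. Spry1 (ENSMUSG00000037211) lay at chr3:37639947-37644598 and Spry2 (ENSMUSG00000022114) at chr14:105891947-105896819. Fgf18 and Spry2 are on the minus strand and the other 7 on the plus strand. Fgf2 and Spry1 are separated by 229.8 kb on chromosome 3.

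The first question was which cells carry each signal. Hgf was split between macrophage/monocyte-like cells, which held 70.1%, 78.8% and 73.8% of its UMIs, and FAP-like cells, which held 25.6%, 15.6% and 21.6%. The 3 FGF ligands lay in FAP-like cells, which were 15.7%, 13.2% and 14.6% of the cells but held 88.2% to 91.7% of Fgf7, 79.9% to 83.2% of Fgf2 and 78.8% to 80.3% of Fgf18 UMIs. Fgfr4 lay in MuSC/myoblast-like cells, with 76.6%, 75.4% and 83.1% of its UMIs, and a further 13.0%, 11.9% and 8.22% were in myocyte-like cells. Fgfr1 lay mainly in FAP-like cells, which held 74.0%, 78.3% and 73.1% of it, while MuSC/myoblast-like cells held 6.30%, 4.83% and 6.39%. The Sprouty genes were also mainly in FAP-like cells, 56.4%, 59.8% and 52.5% of Spry1 and 65.5%, 71.3% and 67.8% of Spry2, and endothelial-like cells held a further 19.2%, 16.9% and 23.2% of Spry1.

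Met had its highest level in MuSC/myoblast-like cells, yet these held 53.1%, 40.2% and 52.5% of its UMIs, and macrophage/monocyte-like cells held 21.9%, 38.2% and 25.1%. The lower share in old PBS went with a smaller class, since MuSC/myoblast-like cells were 3.53%, 1.80% and 3.21% of kept cells. Under a stricter cell filter, described with Spry2 below, MuSC/myoblast-like cells held 31.0%, 14.5% and 33.9% of Met UMIs. Such shares depend on how many cells of each class were captured, whereas the levels below are scaled within a class.

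**Figure D1:**
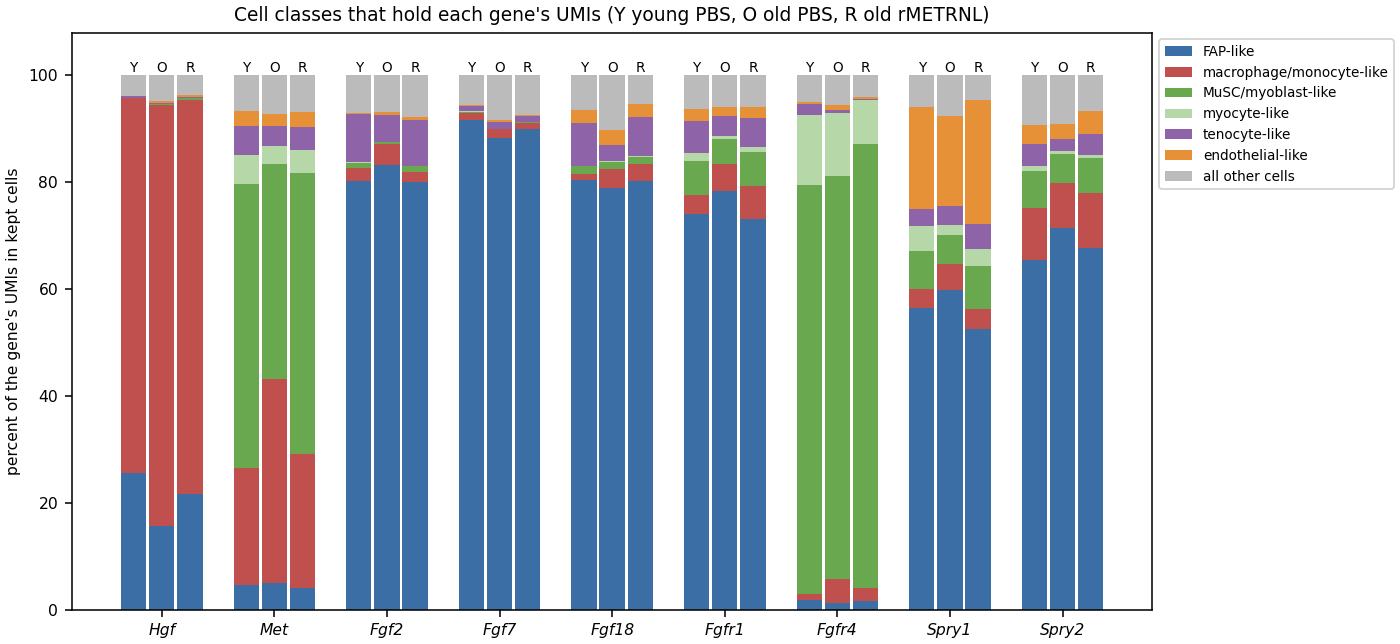
Percent of each gene's UMIs held by 6 cell classes and by all other cells, with 1 stacked bar per library (Y young PBS, O old PBS, R old rMETRNL). Hgf is the one ligand whose bars are mostly macrophage/monocyte-like (70.1%, 78.8% and 73.8%), the FGF ligands are mostly FAP-like, and Fgfr4 is mostly MuSC/myoblast-like.

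Levels are given as CPM, the UMIs of a gene summed over a class per 1000000 UMIs of that class, with an exact 95% Poisson interval. The age ratio divides the level in old PBS by that in young PBS, and the treatment ratio divides the level in old rMETRNL by that in old PBS. Both share the old PBS library, and a value particular to that library moves them in opposite directions. Ratios were computed in the 7 classes with at least 100 cells in every library. A ratio was counted as past the fold at 1.5-fold or more in either direction among genes with at least 50 UMIs over the 3 libraries.

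**Figure D2:**
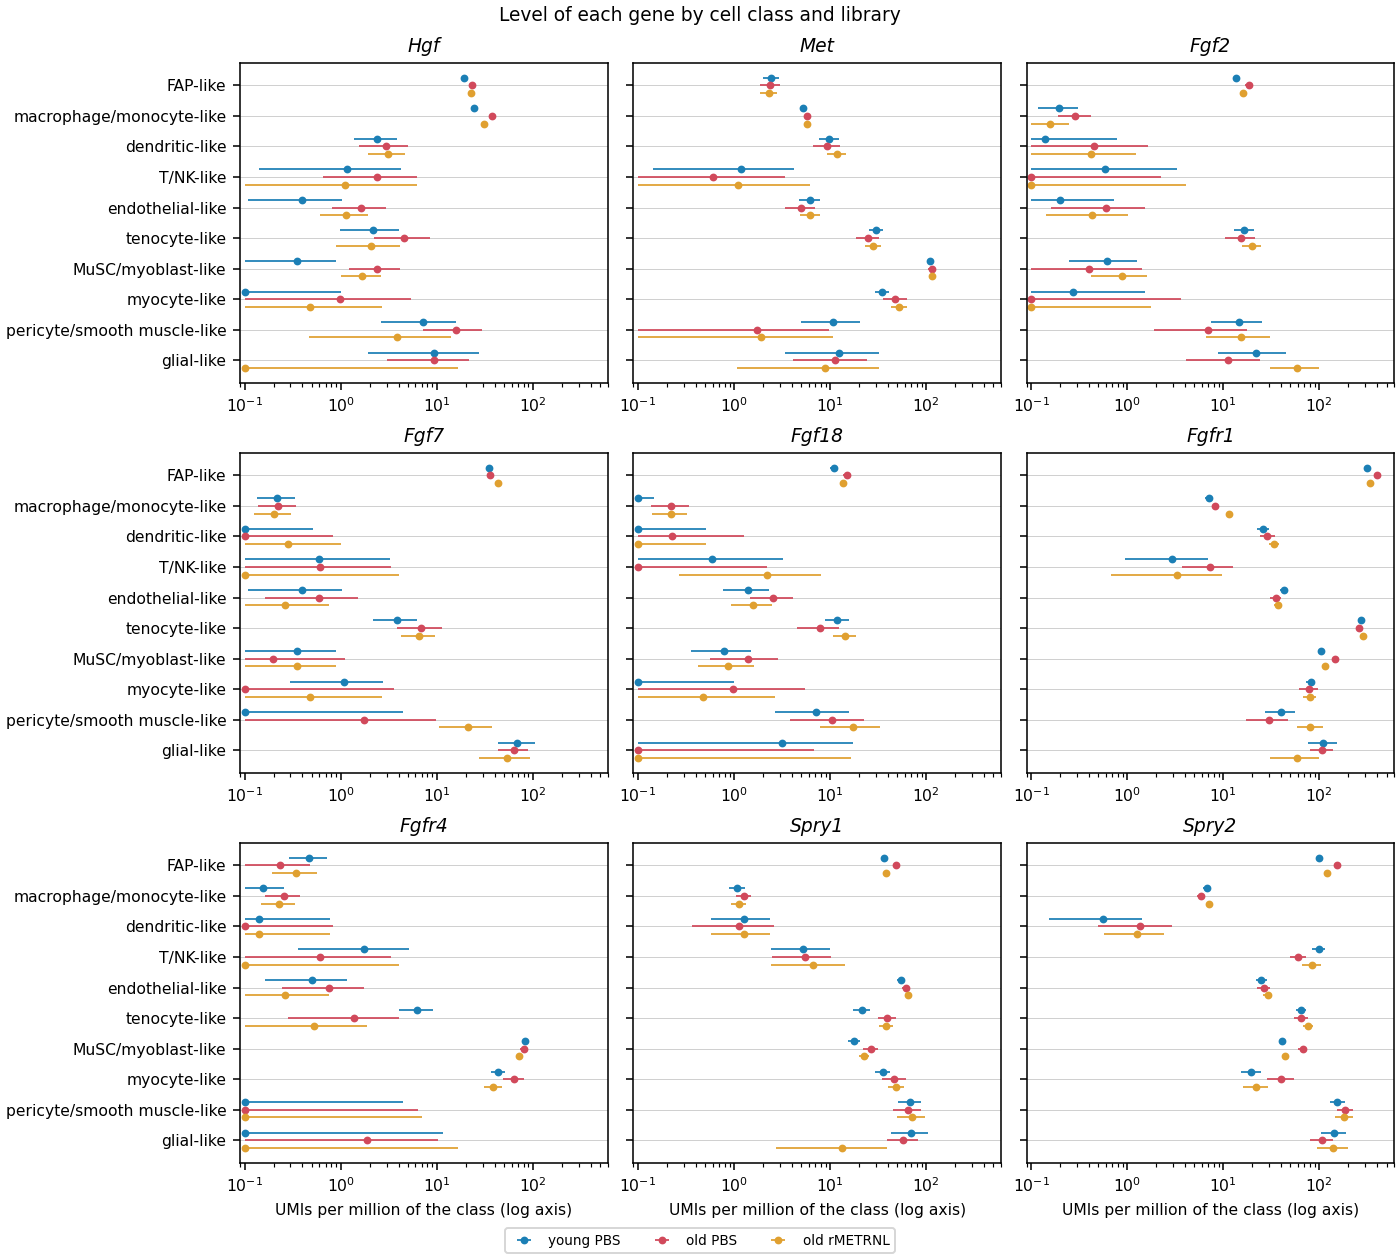
Level of each gene in CPM of the class (log axis; values under 0.1 are drawn at 0.1) for 10 classes, with 1 point per library and its 95% counting interval. Met and Fgfr4 peak in MuSC/myoblast-like cells, Fgf7 in FAP-like and glial-like cells, and Hgf in macrophage/monocyte-like and FAP-like cells.

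Hgf, the ligand of MET, was higher in old PBS than in young PBS in macrophage/monocyte-like cells. It had 2335, 3535 and 3376 UMIs, or 24.1 (95% interval 23.1 to 25.1), 37.6 (36.4 to 38.9) and 30.9 (29.9 to 32.0) CPM. No interval overlapped another, and old rMETRNL lay between the others. The age ratio was 1.56 (1.48 to 1.65), above 94.6% of the 14260 genes counted in this class, the treatment ratio was 0.822 (0.783 to 0.861), and old rMETRNL over young PBS was 1.28 (1.22 to 1.35). Of the cells, 25%, 36.8% and 30.6% had an Hgf UMI. After each cell was thinned to 2000 UMIs the shares were 4.41%, 6.57% and 5.56%, beside 0.490%, 0% and 0% of T/NK-like cells, which should lack Hgf. The median depths behind the unthinned shares were 14266, 15017 and 14572 UMIs, and 5810, 6055 and 5086 in T/NK-like cells, where 0.957%, 0.532% and 0.8% had an Hgf UMI.

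The difference in Hgf was spread over the macrophage/monocyte-like sub-clusters. Of 12 sub-clusters with at least 50 Hgf UMIs, 11 had a higher level in old PBS than in young PBS, with the interval of the ratio above 1 in 8, and the ratios ran from 0.917 to 2.16. In old rMETRNL against old PBS 11 of 12 were lower, 5 with the interval below 1. The sub-cluster led by Mfge8 and Atp6v0d2 had 38.4, 48.5 and 46.3 CPM, the Ly6c2 and Plac8 sub-cluster 13.99, 18.3 and 13.5, and the sub-cluster led by the proliferation genes Hist1h1b and Top2a 19.8, 35.6 and 25.9. The exception to the age difference was the sub-cluster led by Retnla and Ear2, with 28.9, 26.5 and 24.8.

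The makeup of the class differed too. Its largest sub-cluster was one led by Hes1 and Ifit3b in young PBS (1310 cells, against 209 and 742), one led by Dnase1l3 and Vcam1 in old PBS (1032 cells) and the Mfge8 sub-cluster in old rMETRNL (1101 cells). With the sub-cluster proportions of young PBS held fixed the age ratio of Hgf was 1.46, and with the young PBS levels held fixed and only the proportions exchanged it was 1.12. The corresponding treatment ratios, held at old PBS, were 0.874 and 0.956. The summed level of 10 mature fibre markers in this class was 37.5, 110 and 51.7 CPM, highest in the same library as Hgf, and its part in the difference was not tested.

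In FAP-like cells, stromal cells that support MuSCs through secreted factors, Hgf had 852, 699 and 987 UMIs, or 19.1 (17.8 to 20.4), 23.3 (21.6 to 25.1) and 22.6 (21.2 to 24.0) CPM. Both old libraries were above young PBS and overlapped each other. The age ratio was 1.22 (1.10 to 1.35) and the treatment ratio 0.969 (0.879 to 1.07). The age ratio turned to 0.847 when each cell was thinned to 2000 UMIs, where few Hgf UMIs remained. In FAP-like cells Hgf stood at 79.1%, 61.9% and 73.1% of its macrophage/monocyte-like level while the complement gene C1qa stood at 0.530%, 0.666% and 0.659%. In endothelial-like cells Hgf was at 1.65%, 4.37% and 3.66% of that level and C1qa at 1.75%, 4.21% and 3.37%. The part of macrophage RNA in these levels was not tested.

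FAP-like sub-clusters differed in Hgf. The sub-cluster led by Swt1 and Trmt1l had 21.2, 44.9 and 42.2 CPM, and the one led by Gucy1a1 and Dio2 had 15.2, 34.6 and 21.3. In the sub-cluster led by Hspb1 and Fos, a heat-shock and an immediate early gene, the order was another, with 33.7, 26.7 and 38.9. Across 9 sub-clusters with enough UMIs the age ratio was above 1 in 6 and ranged from 0.791 to 2.27. Hgf in MuSC/myoblast-like cells had 4, 12 and 19 UMIs, too few for a count in the ratios.

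Among the FGF ligands, Fgf7, a growth factor that acts mainly on epithelial receptors, was higher in FAP-like cells of old rMETRNL than in those of both other libraries. It had 1572, 1083 and 1881 UMIs, or 35.2 (33.5 to 37.0), 36.1 (34.0 to 38.3) and 43.1 (41.1 to 45.0) CPM. The PBS libraries overlapped and old rMETRNL lay above them. Its age ratio was 1.03 (0.949 to 1.11) and its treatment ratio 1.19 (1.11 to 1.29), under the fold. The sub-cluster led by Myoc and Clu had the most, 79.8, 92.9 and 81.2, and the interferon-response sub-cluster led by Rsad2 and Cxcl9 had 44.9, 45.1 and 68.3. Of 10 sub-clusters 7 had a treatment ratio above 1, 3 with the interval above 1. The sub-cluster led by Slc16a3 and Acta2, with 14.6, 26.9 and 34.1, was higher in both old libraries.

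Fgf2, the basic FGF that promotes myoblast division, had 609, 553 and 701 UMIs in FAP-like cells, or 13.6 (12.6 to 14.8), 18.4 (16.9 to 20.04) and 16.05 (14.9 to 17.3) CPM. Both old libraries were above young PBS without overlap, old rMETRNL by a narrow gap, and they overlapped each other. The age ratio was 1.35 (1.203 to 1.52) and the treatment ratio 0.870 (0.777 to 0.975), which was 0.564 after thinning. Of 10 sub-clusters 5 had an age ratio above 1, 2 with the interval above 1, and 5 below 1, 1 with the interval below 1, over a range of 0.439 to 1.93. Its level was highest in the sub-cluster led by Pi16 and Sema3c (29.01, 49.7 and 42.95) and in the Myoc and Clu sub-cluster (39.1, 49.6 and 37.2). Held at young PBS proportions the age ratio was 1.15, and exchanging the proportions alone gave 1.16. The Pi16 and Myoc sub-clusters had 121 and 84 of 1615 cells in young PBS and 150 and 134 of 1317 in old PBS. Tenocyte-like cells had 16.4, 15.2 and 19.8 CPM.

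Fgf18, a ligand of mesenchymal and skeletal tissue, had 490, 450 and 600 UMIs in FAP-like cells, or 10.97 (10.02 to 11.99), 15.0 (13.6 to 16.5) and 13.7 (12.7 to 14.9) CPM. Both old libraries were above young PBS and overlapped each other. The ratios were 1.37 (1.201 to 1.56) for age and 0.915 (0.809 to 1.04) for treatment. At fixed proportions the age ratio was 1.15 and from the proportions alone 1.33. In tenocyte-like cells, where Fgf18 had 50, 17 and 55 UMIs, the ratios were 0.657 (0.355 to 1.16) and 1.83 (1.05 to 3.37), and the second turned to 0.762 after thinning. In macrophage/monocyte-like cells it had 7, 21 and 24 UMIs, which puts its ratio of 3.09 (1.27 to 8.61) on very few molecules.

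Within single FAP-like cells the ligands were found together about as often as their separate shares would give. Hgf and Fgf7 UMIs met in 12.2%, 10.9% and 14.6% of cells, and the products of the separate shares were 11.6%, 9.65% and 12.6%. Detection of each depends on the depth of the cell, and no pairing is read from these values.

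The receptors showed where the signals can land. Met was at 109 (103 to 115), 114 (105 to 124) and 115 (109 to 121) CPM in MuSC/myoblast-like cells, from 1238, 575 and 1313 UMIs. All 3 intervals overlapped, and the ratios were 1.05 (0.951 to 1.16) for age and 1.004 (0.909 to 1.11) for treatment. The next levels were in myocyte-like cells (34.8, 47.8 and 52.1) and tenocyte-like cells (30.3, 24.9 and 28.2), whose intervals overlap in young PBS and not in the old libraries. Dendritic-like cells had 9.81, 9.27 and 11.8, endothelial-like cells 6.18, 4.93 and 6.18 and macrophage/monocyte-like cells 5.28, 5.82 and 5.75. The macrophage/monocyte-like level was 4.85% to 5.09% of that in MuSC/myoblast-like cells, where Pax7 was at 0.172% to 0.227%. Myog, another gene of the muscle lineage, had 4.70, 3.26 and 3.14 CPM in macrophage/monocyte-like cells and 131, 55.9 and 97.9 in MuSC/myoblast-like cells. The part of muscle cell RNA in the macrophage/monocyte-like Met level was not tested. FAP-like cells had the least of these, 2.44, 2.37 and 2.31.

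Fgfr4, an FGF receptor of embryonic and activated myogenic cells, was at 82.7 (77.5 to 88.1), 81.6 (73.9 to 89.9) and 71.6 (66.8 to 76.7) CPM in MuSC/myoblast-like cells. Old rMETRNL was below young PBS without overlap and overlapped old PBS. The ratios were 0.987 (0.876 to 1.11) for age and 0.878 (0.779 to 0.991) for treatment, and the second turned to 1.06 with a stricter cell filter. Myocyte-like cells had 43.6, 63.4 and 38.7, and outside the muscle lineage levels were low. Macrophage/monocyte-like cells had 15, 24 and 25 UMIs, at 0.187%, 0.313% and 0.320% of the muscle level where Pax7 was at 0.213%, 0.172% and 0.227%, and FAP-like cells had 21, 7 and 15.

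Fgfr1, the FGF receptor through which FGF signals reach both stromal and myogenic cells, was at 315 (309 to 320), 393 (386 to 401) and 339 (333 to 344) CPM in FAP-like cells. In MuSC/myoblast-like cells it was at 105 (99.3 to 111), 145 (135 to 156) and 113 (107 to 120). In both classes old PBS was the highest library without overlap. The age ratios were 1.25 (1.22 to 1.28) and 1.38 (1.25 to 1.51), and the treatment ratios 0.861 (0.840 to 0.882) and 0.781 (0.713 to 0.857). The age ratio in MuSC/myoblast-like cells ran from 1.17, without cells with a Myog UMI, to 1.45, with a stricter cell filter. The treatment ratio there ran from 0.773, with doublets kept, to 0.939, after thinning. With sub-cluster proportions held fixed the age ratio was 1.15 in FAP-like cells and 1.20 in MuSC/myoblast-like and myocyte-like cells together, against 1.25 and 1.35 as measured. The treatment ratios held so were 0.912 and 0.963, against 0.861 and 0.809 as measured, and 1 of 8 muscle sub-clusters had an interval below 1. Against young PBS, old rMETRNL was at 1.08 (1.05 to 1.10) in FAP-like cells and 1.08 (0.994 to 1.17) in MuSC/myoblast-like cells. Tenocyte-like cells had 269, 261 and 285 with overlapping intervals, and endothelial-like cells 43.1, 35.3 and 37.2 with an age ratio of 0.819 (0.696 to 0.962), which was 0.475 after thinning.

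In macrophage/monocyte-like cells the pattern of Fgfr1 was another, 7.04 (6.53 to 7.59), 8.13 (7.57 to 8.73) and 11.4 (10.8 to 12.1) CPM, with old rMETRNL highest. The treatment ratio was 1.41 (1.29 to 1.54), and 1.05 as the mean of per-cell levels. Its level varied widely among sub-clusters. The one led by Cd209f and Pla2g2d, of 64, 82 and 69 cells, had 102, 102 and 110, the one led by Retnla and Ear2 had 51.3, 50.3 and 89.9, and the one led by Ccl7 and Ednrb had 27.8, 22.9 and 28.1, while the Ly6c2 and Plac8 sub-cluster had 1.65, 0.982 and 3.29. At fixed proportions the treatment ratio was 1.32.

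Most MuSC/myoblast-like cells carried more than 1 receptor. Met and Fgfr4 were both seen in 67.2%, 64.8% and 63.6% of them, against products of the separate shares of 58.4%, 56.9% and 57.3%, and 85.7%, 86.0% and 87.9% had at least 1 of the pair. Here too detection depends on the depth of each cell.

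The Sprouty genes, read as transcripts that the cascade induces, were higher in old PBS than in young PBS in FAP-like and MuSC/myoblast-like cells. Spry2 in FAP-like cells had 4448, 4553 and 5204 UMIs, or 99.6 (96.7 to 103), 152 (147 to 156) and 119 (116 to 122) CPM. Among MuSC/myoblast-like cells it had 470, 339 and 507, or 41.3 (37.7 to 45.2), 67.5 (60.5 to 75.0) and 44.4 (40.6 to 48.4). Old PBS was highest without overlap in both classes, and in MuSC/myoblast-like cells old rMETRNL overlapped young PBS. The age ratios were 1.52 (1.46 to 1.59) and 1.63 (1.42 to 1.88), above 93.0% and 96.5% of the genes counted in each class. The treatment ratios were 0.785 (0.754 to 0.817) and 0.657 (0.572 to 0.757), and old rMETRNL over young PBS was 1.20 (1.15 to 1.25) and 1.07 (0.945 to 1.22). Shares of MuSC/myoblast-like cells with a Spry2 UMI were 55.9%, 63.1% and 61.1%, or 9.88%, 15.9% and 14.6% after thinning, with 0.162%, 0.287% and 0.160% of thinned dendritic-like cells beside them as background. The median depths were 26558, 24878 and 28197 UMIs, and 10594, 11841 and 10583.5 in dendritic-like cells.

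The MuSC/myoblast-like result for Spry2 leaned on the cell filter. The stricter filter, 1000 genes or more and mitochondrial UMIs below 5%, kept 101, 37 and 143 cells of this class, and the ratios were then 1.24 and 0.879, neither at 1.5-fold. The median mitochondrial share of the class was 5.92%, 6.31% and 5.16%, highest in old PBS as Spry2 was. Cells at 5% or more were 227 of 363, 128 of 179 and 195 of 365. The part of this share in the Spry2 ratios was not tested. Thinned cells gave 1.49 and 0.922. Over MuSC/myoblast-like and myocyte-like cells together the ratios were 1.74 and 0.651 as measured and 1.57 and 0.741 with sub-cluster proportions held fixed, where the second is short of 1.5-fold. In FAP-like cells the age ratio lay between 1.48 and 1.58 over 12 alternatives, on both sides of 1.5, and the treatment ratio between 0.773 and 0.832.

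Spry1 in FAP-like cells was at 36.0 (34.3 to 37.8), 49.1 (46.7 to 51.7) and 38.5 (36.7 to 40.4) CPM, with old PBS highest and the others overlapping. The MuSC/myoblast-like levels were 17.8 (15.5 to 20.5), 26.5 (22.2 to 31.4) and 22.5 (19.8 to 25.4), where old rMETRNL overlapped both. The age ratios were 1.36 (1.27 to 1.47) and 1.48 (1.18 to 1.86), and the treatment ratios 0.783 (0.730 to 0.840) and 0.849 (0.686 to 1.06). Under the stricter filter the treatment ratio in MuSC/myoblast-like cells was 1.3. Spry1 was also present in vessel cells, at 67.3, 64.4 and 71.2 in pericyte/smooth muscle-like and 54.8, 62.2 and 64.7 in endothelial-like cells, and within each library the intervals of these classes overlap. The endothelial-like ratio of old rMETRNL to young PBS was 1.18 (1.06 to 1.32). Tenocyte-like cells had 21.4, 39.2 and 38.6, with an age ratio of 1.83 (1.34 to 2.48), which was 4.21 after thinning, and a ratio of old rMETRNL to young PBS of 1.80 (1.38 to 2.37). In the same cells the macrophage marker C1qa had 97.4, 309 and 109 CPM and the mature fibre marker Acta1 4.53, 54.3 and 15.4. The FAP marker Pdgfra had 74.1, 45.1 and 57.9. The part of other cells' RNA in the tenocyte-like ratios of any member was not tested.

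Within FAP-like cells the age difference of both genes ran through most sub-clusters. Spry2 was higher in old PBS than in young PBS in 9 of 10 sub-clusters, 7 with the interval above 1, and Spry1 in 10 of 10, 6 with the interval above 1. For Spry2 the sub-cluster led by Cxcl5 had 156, 211 and 159, the Hspb1 and Fos sub-cluster 94.3, 159 and 113, and the Swt1 and Trmt1l sub-cluster 42.9, 54.4 and 52.0. For Spry1 the Swt1 and Trmt1l sub-cluster had the most, 65.6, 86.8 and 85.6, and the Pi16 and Sema3c sub-cluster the least in young PBS, 3.39, 17.8 and 10.2. The treatment ratio was below 1 in 8 of 10 for Spry2 and in 7 of 10 for Spry1, 4 with the interval below 1 for each. At fixed proportions the age ratio was 1.33 for Spry2 and 1.38 for Spry1, and from the proportions alone 1.13 and 0.918.

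**Figure D3:**
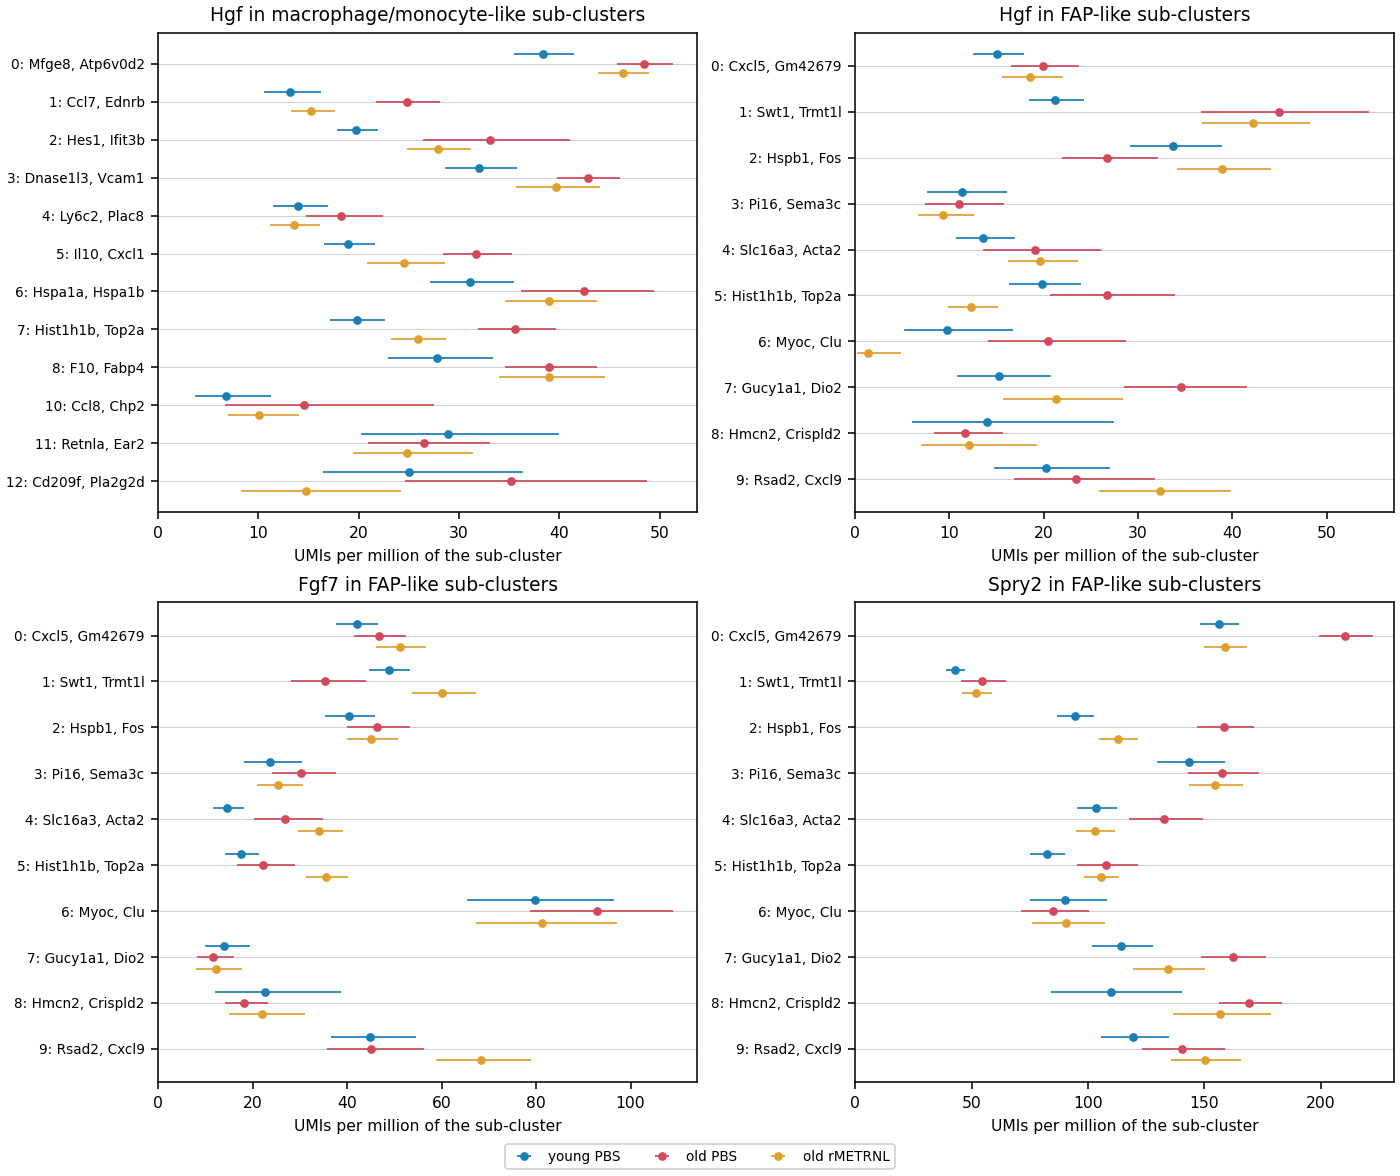
Level in CPM of the sub-cluster (linear axis from 0) of Hgf in macrophage/monocyte-like sub-clusters and of Hgf, Fgf7 and Spry2 in FAP-like sub-clusters, named by number and 2 leading genes, with 1 point per library and 95% counting intervals. Sub-clusters with few cells in any library are not drawn. Counted instead among sub-clusters with at least 50 UMIs of the gene, old PBS was above young PBS for Hgf in 11 of 12 macrophage/monocyte-like sub-clusters. For Spry2 it was above in 9 of 10 FAP-like sub-clusters counted so.

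Spry2 in T/NK-like cells went the other way, 98.8 (84.4 to 115), 60.3 (49.1 to 73.3) and 83.0 (65.3 to 104) CPM from 168, 100 and 75 UMIs. The age ratio was 0.611 (0.472 to 0.787) and the treatment ratio 1.38 (1.01 to 1.88), which was 2.28 after thinning. The 10 T/NK markers, all detected, summed to 6022, 4722 and 4546 CPM in these cells, the 12 macrophage/monocyte markers to 1733, 2407 and 2052, and the 10 FAP markers, of which 9, 10 and 10 were detected, to 209, 254 and 236. Mature fibre markers summed to 41.2, 294 and 59.8, with 10, 10 and 8 of 10 detected. The part of other cells' RNA in this result was not tested. The class had 209, 188 and 125 cells and its makeup of lymphocyte types was not tested. Spry2 was low in macrophage/monocyte-like cells, 6.71, 5.81 and 7.17, and its age ratio of 0.866 (0.771 to 0.972) turned to 1.06 as a mean of per-cell levels and 1.05 after thinning.

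The members past the fold were counted by class. In FAP-like cells 1 of 8 did for age (Spry2, higher), where 14.2% of all genes did, and 0 of 8 for treatment, where 10.1% did. In MuSC/myoblast-like cells 1 of 5 did for age (Spry2, higher; 10.7% of all genes) and 1 of 5 for treatment (Spry2, lower; 9.56%). In macrophage/monocyte-like cells 3 of 9 did for age (Hgf, Fgf18 and Fgfr4, all higher; 13.4%) and 1 of 9 for treatment (Fgf2, lower; 9.84%), and Fgf18, Fgfr4 and Fgf2 rest there on 52 to 64 UMIs over the 3 libraries. With old rMETRNL set against young PBS the counts were 0 of 8 in FAP-like cells (8.48% of all genes), 0 of 5 in MuSC/myoblast-like cells (4.96%) and 2 of 9 in macrophage/monocyte-like cells (Fgf18 and Fgfr1, higher; 6.61%). The members not counted for low UMIs were Fgfr4 in FAP-like cells and Hgf, Fgf2, Fgf7 and Fgf18 in MuSC/myoblast-like cells.

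In FAP-like and MuSC/myoblast-like cells these are 0 or 1 member each, and nothing about the members as a group is read from the counts in any class. The median log2 ratio for age was 0.38 over the 8 members and -0.04 over all genes in FAP-like cells, and 0.46 and 0.01 in MuSC/myoblast-like cells. For treatment it was -0.16 and 0.02 in FAP-like cells, and -0.24 and -0.01 in MuSC/myoblast-like cells. Macrophage/monocyte-like medians over the 9 members were 0.22 for age and -0.15 for treatment, beside -0.004 and 0.05 over all genes. The medians for age and treatment were -0.10 and 0.10 over 4 members in endothelial-like cells, beside -0.04 and 0.04 over all genes. They were -0.04 and 0.17 over 7 members in tenocyte-like cells, beside 0.03 and -0.04, and 0.14 and 0.24 over 3 members in dendritic-like cells, beside -0.03 and 0.02. In T/NK-like cells the 1 member counted, Spry2, was at -0.71 and 0.46. Outside these classes 0 of 4 members passed in endothelial-like cells for age (18.1% of all genes), treatment (13.2%) or old rMETRNL against young PBS (7.13%), and 0 of 3 in dendritic-like cells (15.4%, 12.7% and 7.09%). In tenocyte-like cells 3 of 7 passed for age (Fgf7 and Spry1 higher, Fgf18 lower; 15.7%) 1 of 7 for treatment (Fgf18, higher; 13.1%) and 2 of 7 for old rMETRNL against young PBS (Fgf7 and Spry1, higher; 10.8%). The tenocyte-like Fgf7 age ratio, 1.81 (0.835 to 3.92), was listed at 0 after thinning, and that of Fgf18 was 1.01 as a mean of per-cell levels. In T/NK-like cells Spry2 was the 1 member counted and passed for age (lower; 14.5%), not for treatment (15.3%) and not for old rMETRNL against young PBS (13.9%).

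**Figure D4:**
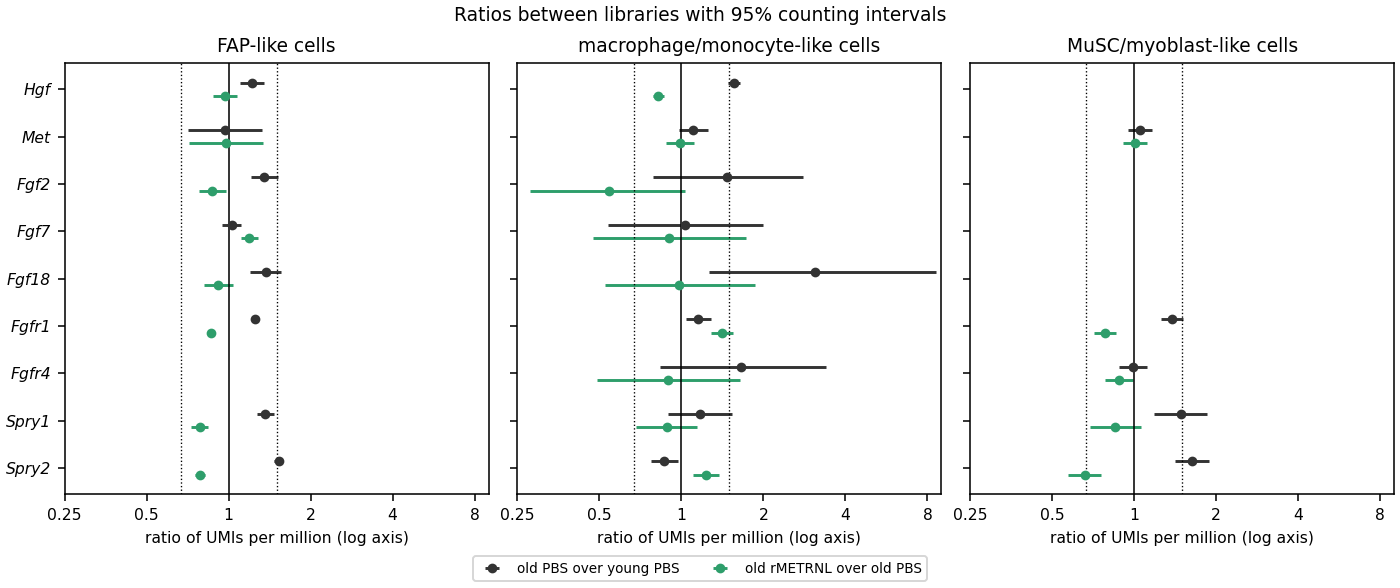
Ratio of CPM between libraries (log axis) for each gene in FAP-like, macrophage/monocyte-like and MuSC/myoblast-like cells, black for old PBS over young PBS and green for old rMETRNL over old PBS, with 95% counting intervals and dotted lines at 1.5-fold. Genes under 50 UMIs are not drawn. Spry2 lies past the right line for age in FAP-like (1.52) and MuSC/myoblast-like cells (1.63), and Hgf in macrophage/monocyte-like cells (1.56).

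RNA of other cells also moved between the libraries. The 10 mature fibre markers, all detected, summed to 15.4, 73.8 and 28.8 CPM in FAP-like cells and 396, 452 and 380 in MuSC/myoblast-like cells, highest in old PBS as the Sprouty genes were. The 12 macrophage/monocyte markers summed to 188, 219 and 228 in FAP-like cells and 167, 174 and 190 in MuSC/myoblast-like cells. The 10 FAP markers summed to 1080, 1188 and 964 in MuSC/myoblast-like cells, highest in old PBS, and to 41696, 45944 and 41234 in FAP-like cells. Spry2 in MuSC/myoblast-like cells was at 41.5%, 44.4% and 37.2% of its FAP-like level. The part of RNA from fibers, FAPs or macrophages in the ratios was not tested.

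Muscle cells were next split by state, because the receptors and inhibitors are used differently before and after commitment. Among MuSC/myoblast-like and myocyte-like cells, 194, 106 and 194 had a Pax7 UMI and no Myog UMI (43.3%, 52.2% and 46.5%), where Pax7 marks stem and progenitor cells. A Myog UMI, the mark of differentiating cells, was found in 195, 61 and 150 (43.5%, 30.05% and 36.0%). These states rest on detection, a single UMI, and so on depth. No background was taken off, and Myog stood at 4.70, 3.26 and 3.14 CPM in macrophage/monocyte-like cells. Of MuSC/myoblast-like cells 44.2%, 40.0% and 43.8% were cycling, which was called at 2 or more UMIs over 10 cell cycle genes in cells thinned to 2000 UMIs.

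Receptor levels were higher in the Pax7 state than in the Myog state. Fgfr1 had 138, 166 and 138 CPM against 74.4, 99.4 and 83.1, Fgfr4 had 93.5, 92.2 and 76.7 against 59.7, 72.2 and 60.5, and Met had 115, 124 and 115 against 74.0, 77.2 and 93.7. Spry2 followed, with 53.0, 80.2 and 49.0 against 24.3, 45.4 and 32.2. Spry1 did not, with 21.7, 30.5 and 22.9 against 23.6, 32.7 and 31.7.

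Differences between libraries were present within the states. For Spry2 the age ratio was 1.51 (1.27 to 1.80) in the Pax7 state and 1.87 (1.46 to 2.39) in the Myog state, and the treatment ratio 0.611 (0.513 to 0.727) and 0.709 (0.555 to 0.911). In cells with neither UMI (59, 36 and 73) the ratios were 1.17 (0.716 to 1.93) and 0.991 (0.646 to 1.54). Cycling and other cells gave Spry2 age ratios of 1.53 (1.21 to 1.95) and 1.61 (1.34 to 1.92). Fgfr1 was higher in old PBS than in young PBS in all 3 states, by 1.18 to 1.34 times, and lower in old rMETRNL than in old PBS by ratios of 0.830 to 0.836, in both contrasts with an interval that excluded 1 in 2 of the 3. For Met the age interval held 1 in each state, and old rMETRNL was above old PBS in the Myog state at 1.21 (1.02 to 1.45). Fgfr4 was at 0.754 (0.633 to 0.900) of old PBS in cycling cells of old rMETRNL and at 1.04 (0.878 to 1.23) in the other cells.

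**Figure D5:**
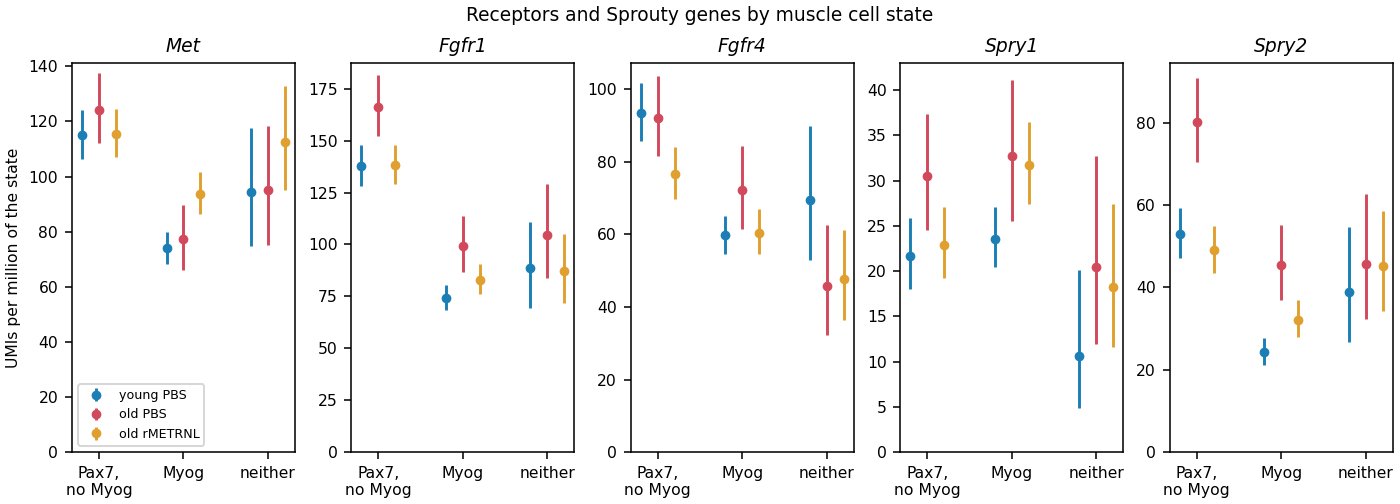
Level in CPM of the state (linear axes from 0, a scale of its own per gene) of Met, Fgfr1, Fgfr4, Spry1 and Spry2 in muscle cells with a Pax7 and no Myog UMI, with a Myog UMI, and with neither, with 1 point per library and 95% counting intervals. Old PBS is the highest library for Spry2 in the Pax7 state (80.2) and in the Myog state (45.4).

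The remaining pathway was followed through 72 other genes grouped by role. In FAP-like cells 48 had enough UMIs, of which 3 were past the fold higher and 4 lower for age (14.6%), and 2 higher and 1 lower for treatment (6.25%). In MuSC/myoblast-like cells 41 had enough, with 4 higher and 0 lower for age (9.76%) and 1 higher and 2 lower for treatment (7.32%). These shares are close to or under those of all genes given above. Of the list, 44 were counted in macrophage/monocyte-like cells, with 4 higher and 4 lower for age (18.2%, beside 13.4% of all genes) and 4 higher and 1 lower for treatment (11.4%, beside 9.84%). Named after their values were seen, the genes past the fold that have no values below were Fgf16 and Fgfr3 in FAP-like cells and Fgfbp3 and Spry4 in MuSC/myoblast-like cells.

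Of 11 genes of HGF activation and its family, 6 were counted in FAP-like cells and 1 passed for age, where 14.2% of all genes did. It was Plau, the urokinase that can cleave pro-HGF, at 89.2, 147 and 126 CPM, and its age ratio was 1.65 (1.58 to 1.72). Plat, the tissue-type plasminogen activator, had 14.5, 24.9 and 13.5 in MuSC/myoblast-like cells whose age ratio was 1.72 (1.35 to 2.18) and treatment ratio 0.542. In FAP-like cells Plat was at 182, 238 and 174. Plaur, the urokinase receptor, had 174, 226 and 165 in macrophage/monocyte-like cells.

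Of 19 other FGF ligands, 6 were counted in FAP-like cells, of which 3 passed for age (14.2% of all genes did) and 2 for treatment (10.1%). Fgf1, the acidic FGF, had 3.202, 7.14 and 5.54 CPM, an age ratio of 2.23 (1.80 to 2.77), and Fgf21, an FGF hormone, had 2.44, 0.934 and 2.77 whose age ratio was 0.383 and treatment ratio 2.97. In MuSC/myoblast-like cells Fgf21 had 0.967, 0.796 and 3.85 CPM from 59 UMIs in all, with a treatment ratio of 4.84 (1.76 to 18.5). Fgf16, past the fold higher for age and lower for treatment, rests on fewer than 200 UMIs. Fgf11, an intracellular FGF homolog, was at 15.0, 12.3 and 14.3 in MuSC/myoblast-like cells. Of the 5 other receptors and co-receptors 3 were counted in FAP-like cells, and Fgfr2, the receptor of FGF7, was lower in both old libraries at 5.46, 3.33 and 3.37 (age ratio 0.610). Fgfrl1, a receptor without a kinase, was at 24.6, 18.5 and 17.0.

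Among 15 carriers and heparan sulfate proteins, 12 were counted in FAP-like cells and 0 passed in either contrast, where 14.2% and 10.1% of all genes did for age and treatment. Sdc4, a syndecan of MuSCs, was at 232, 288 and 270 CPM in MuSC/myoblast-like cells, and Sdc3 at 366, 302 and 311 in macrophage/monocyte-like cells. All 8 adaptors were counted in FAP-like cells and 0 passed in either contrast, beside the same shares of all genes, as in Grb2 (49.7, 51.5 and 53.7), the link from receptors to RAS, and Cbl (26.5, 28.0 and 27.5), a ubiquitin ligase that retires receptors.

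The 14 further feedback and ERK target genes had a median log2 age ratio of 0.35 over 13 counted in FAP-like cells, beside -0.04 over all genes, and a median treatment ratio of -0.27 on that scale, beside 0.02. Of the 13, 1 passed for age (Dusp4, lower) and 1 for treatment (Dusp4, higher), and 14.2% and 10.1% of all genes did. The MuSC/myoblast-like medians were 0.10 and -0.02. Dusp6, an ERK phosphatase, had 15.3, 21.7 and 15.7 CPM in FAP-like cells and 17.0, 27.3 and 20.3 in MuSC/myoblast-like cells, with age ratios of 1.42 (1.27 to 1.58) and 1.599 (1.28 to 2.0) and treatment ratios of 0.725 and 0.744. In macrophage/monocyte-like cells old PBS was instead the lowest library and old rMETRNL the highest, at 23.1, 15.5 and 26.2. Dusp5 was at 59.7, 84.96 and 69.4 and Phlda1 at 524, 681 and 660 in FAP-like cells. Dusp4, of the same phosphatase family, was lowest in old PBS, at 9.05, 3.97 and 7.81 in FAP-like cells, with ratios of 0.439 (0.355 to 0.539) and 1.97 (1.59 to 2.45).

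The genes most like each member over 21 points, the 7 classes in each of 3 libraries, were found by Pearson's r of log2(CPM + 1) among genes reaching 20 CPM. The points share libraries and depth, and r is given as a description. Fgfr4 was closest to Myf5, Bves and Fndc3c1 (r of 0.99), and Met to Ankrd1, St3gal5 and Jph2 (0.92 to 0.86). For Fgf2 the closest were Sema3c, Pdzrn3 and Ltbp2 (0.99), for Fgf7 Lgi2, Vegfd and Ptges (0.98), for Fgf18 Ccdc80, Adamtsl3 and Pcolce (0.97) and for Fgfr1 Arhgap32, Timp1 and Mt2 (0.98 to 0.97). Spry1 was closest to Nckap1, Nbea and Socs5 (0.99 to 0.98), Spry2 to Ccdc127, AI506816 and Kdm5b (0.93), and Hgf to Prdx5, Dtnbp1 and Ap3s1 (0.93 to 0.89).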

How the data were processed

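Single-cell RNA sequencing of 3 libraries was analysed from the deposited UMI count matrices. The authors made the counts with Cell Ranger, 5.0.0 per the file headers; the submitters' notes also list 3.1.0 and the methods another version, which was not settled. The build was mm10 per the labels and the annotation release is not given in the sources used here. The filter kept cells of 500 or more genes whose mitochondrial share was below 10%. Scrublet's automatic threshold called 1, 0 and 0 cells, so the highest scores were called at 0.8% per 1000 barcodes (1154, 1164 and 1487) and removed. Counts scaled to 10000 per cell and logged were clustered (scanpy 1.11.5, leidenalg 0.10.2) on 2000 variable genes without the 9 members and the 72 pathway genes, with 30 components, 20 neighbours and resolution 0.8, without integration. Clusters were named "-like" from lists of 16 marker classes, by conditions revised after cluster tables were seen. Unnamed cells were 3.67%, 6.13% and 4.87%. A cluster drawn largely from 1 library can reflect that library and not a cell type. UMIs were summed per class and library. Levels have exact Poisson intervals and ratios an exact conditional interval (scipy 1.17.1). The ratio interval was tried only on simulated Poisson counts, which leave out the spread between cells and between mice. The named genes were all members, the 3 genes most like each, the 2 pathway genes per role with the most UMIs, and pathway genes past 1.5-fold in FAP-like or MuSC/myoblast-like cells with at least 200 UMIs, of which 1 is not reported here. Members and lists were chosen with earlier results of these data known. Alternatives changed the resolution, doublets, filters, scaling, averaging, thinning, gating, minimum UMIs and fold.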

Additional observations from a re-analysis of the deposited data

Results flagged for a closer look

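The following values were marked for a second look, and no difference between classes was tested because each group had 1 library. Spry2 differed from young PBS to old PBS in opposite directions by class, with age ratios of 1.52 in FAP-like, 1.63 in MuSC/myoblast-like and 0.611 in T/NK-like cells. Its treatment ratios were opposite as well, 0.785 in FAP-like, 0.657 in MuSC/myoblast-like and 1.38 in T/NK-like cells. For Fgfr1 the treatment ratio was 1.41 in macrophage/monocyte-like and 0.781 in MuSC/myoblast-like cells. Glial-like cells, with 30, 93 and 52 cells too few for the comparisons, had Fgf7 at 68.9, 63.3 and 53.7 CPM, from 22, 34 and 12 UMIs. These counting intervals, 43.2 to 104, 43.8 to 88.4 and 27.8 to 93.9, all overlap. The 10 FAP markers summed to 11624, 8103 and 4585 CPM in these cells and the 8 glial markers to 6980, 13075 and 17315, all detected, and the part of FAP RNA in the Fgf7 level was not tested.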

How the results depend on the processing

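No paired analysis was possible because each group holds 1 library, and for the same reason no replicate could be left out. Of 790 member ratios under the alternatives, 734 stayed within the counting interval of the value reported. Thinning gave most of the departures, with 36 of 72 ratios inside, against 62 of 74 for per-cell means and 68 of 74 for the stricter filter. Among ratios whose own interval excluded 1, 5 values crossed to the other side of 1, and ratios with an interval that held 1 crossed it more often, such as Spry1 in MuSC/myoblast-like cells for treatment (0.849 as reported, 1.3 under the stricter filter). Those 5 were Hgf in FAP-like cells for age (0.847 thinned), Spry2 in macrophage/monocyte-like cells for age (1.06 as a mean of per-cell levels, 1.05 thinned), Fgf18 in tenocyte-like cells for treatment (0.762 thinned) and Fgfr4 in MuSC/myoblast-like cells for treatment (1.06, stricter filter). The number of members past the fold in FAP-like cells for age, 1 as reported, was 2 by per-cell means (Fgf2, Spry2), 3 thinned (Fgf2, Fgf18, Spry1), 2 with a minimum of 1 UMI and 0 at a fold of 2. For treatment, 0 as reported, it was 1 with doublets kept (Fgfr4), 1 thinned (Fgf2) and 1 by marker gate (Fgfr4). In MuSC/myoblast-like cells for age, 1 as reported, it was 2 with doublets kept (Spry1, Spry2), 2 by marker gate (Fgf7, Spry2), 5 with a minimum of 1 UMI, and 0 under the stricter filter, thinned, at a fold of 2, and without cells with a Myog UMI, an alternative chosen after seeing the data, where Spry2 was at 1.42. For treatment, 1 as reported, it was 2 by marker gate, 4 with a minimum of 1 UMI, and 0 under the stricter filter, thinned and at a fold of 2. The share of all genes past the fold was not computed under these alternatives. Their counts are therefore not read against the shares given above. Leaving out the FAP-like sub-cluster led by Slc16a3 and Acta2, also chosen after seeing the data, moved 0 of 16 ratios out of their intervals. The fewer UMIs of thinned cells and the 37 cells left in old PBS by the stricter filter limit those values, and the cause of the other moves was not tested. Of 624 shares of a gene's UMIs held by a class, 207 left their counting interval, most often when cells were thinned (57 of 78), doublets were kept (51 of 78) or the stricter filter was used (50 of 78). The stricter filter gave the largest move, 27.4 percentage points lower for Fgfr4 in MuSC/myoblast-like cells of old PBS.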

Other observations

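Small classes outside the comparisons also carried members of the set. Pericyte/smooth muscle-like cells (86, 105 and 81) had Spry2 at 154 (128 to 183), 186 (153 to 225) and 181 (146 to 221) CPM, with overlapping intervals. Their Fgf7 rested on 0, 1 and 11 UMIs, at 0 (which allows up to 3.61), 1.74 and 21.2 (10.6 to 37.9) CPM. The tenocyte marker Tnmd had 3.61, 17.4 and 42.3 CPM in these cells and the endothelial marker Pecam1 2.40, 10.4 and 32.7. The FAP marker Pdgfra had 4.81, 0 and 3.85 and the macrophage marker C1qa 202, 113 and 156. The part of other cells' RNA in the Fgf7 level was not tested. Glial-like cells had Spry2 at 141, 106 and 139, and Fgf2 at 21.9 (8.81 to 45.2), 11.2 (4.10 to 24.3) and 58.2 (31.0 to 99.5), from 7, 6 and 13 UMIs.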
